A study of Mus musculus with 6 samples.

Results

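The rows described here are short coding regions, those in which 1 to 300 nt of coding sequence (CDS) were counted. They were selected on the counted CDS length, on a row that holds 1 gene name, and on at least 50 RNA-seq reads on exons summed over both RNA-seq libraries. Of 23698 rows, 1018 had 1 to 300 nt of counted CDS. Of these, 32 joined several gene names and 588 were below the read minimum, which left 398 members. Because counted length and RNA-seq reads chose the members, both are given as description only, and so is every ratio that contains them.

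The study followed untranslated regions and translation in mouse skin cells and squamous cell carcinoma. The values come from 3 libraries of cultured squamous cell carcinoma cells (SCC), 1 ribosome profiling library and 2 RNA-seq libraries. All 3 were made from primary keratinocytes of P0 mouse back skin with the genotype HrasG12V; Tgfbr2 fl/fl KO, grown in culture and used at passage 10 to 15. Wild-type cells were not analysed here, so every comparison is between genes of the same cells. The sources used here do not say whether the RNA-seq replicates are separate cultures, so the spread between them may be technical.

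The cells carried the keratinocyte markers of their source, while markers of the carcinoma or its genotype were not examined. All 10 keratinocyte markers were above 1 RPKM (reads divided by counted length in kilobases and by the exon reads of the library) in both RNA-seq libraries, with *Krt5* highest at 7965 RPKM in replicate 1 and 9483 RPKM in replicate 2. The 8 fibroblast markers summed to 10.3 and 16 RPKM, the most of the other cell types, with 4 of them above 1 RPKM in both replicates and *Col3a1* highest at 3.89 and 5.49 RPKM. The 6 immune markers summed to 3.81 and 12.2 RPKM, mostly from *Lyz2* at 2.71 and 8.56 RPKM, and *Cd3e* and *Cd207* had no read. The 5 melanocyte markers summed to 5.46 and 5.52 RPKM, nearly all from *Pmel*, and the 4 endothelial markers to 0.505 and 0.652 RPKM, led by *Kdr*. The part of other cell types in the results was not tested.

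Short proteins serve as subunits of large machines such as the ribosome, the respiratory chain, the spliceosome and the translocon, or as peptides that bind actin, calcium, metal ions or microbes. A ribosome spends a larger share of its time at the start and stop codons of a short CDS than of a long one, and many short housekeeping genes have pseudogene copies that share their sequence. A row can also hold a short CDS because only part of a longer CDS was counted, so annotation is needed to tell a short protein from a partly counted one.

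The sequence around the start codon is shown for the fully counted short proteins at both ends of the range of translational efficiency, because initiation context is a sequence feature that did not enter the selection of members. Of the 8 highest and 8 lowest, *Defb14* and *Brk1*, both on the plus strand, are left out because GENCODE M21 holds fewer than 10 nt of 5′UTR in their transcripts, although 29 nt of 5′UTR were counted for *Defb14*. Capitals mark the start codon, preceded by the last 10 nt of the 5′UTR and followed by the first 7 nt of the CDS after the start codon, read 5′ to 3′ on the strand of the gene from GENCODE M21 transcripts on GRCm38. The first 7 lines are members with high and the last 7 members with low translational efficiency.
Rps29: tgaaggcaagATGggtcacc
Polr2l: agacgccgccATGatcatcc
Dynll1: cacggtaaccATGtgcgacc
Rps28: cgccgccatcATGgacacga
Snrpf: ggtggtcgcgATGagtctac
Higd1a: agaaatcacaATGtcaacca
Ost4: tgtccacaggATGatcacgg
2010107E04Rik: tcccgcggagATGtttcaaa
Atxn7l3b: gccggttaagATGgaggaga
Atox1: cgcgtcagtcATGccgaagc
Atp5k: cacggacaaaATGgtgcccc
Uqcrh: ggctcccgacATGggactag
Shfm1: gcgcggcgcgATGtccgaaa
Fxyd3: aggctttgacATGcaagagg

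The 14 genes shown lie on the minus strand, and the contexts span the end of the 5′UTR and the start of the CDS in exons of protein-coding transcripts. The high members are at chr12:69157722-69159186 (*Rps29*), chr7:141471860-141475132 (*Polr2l*), chr5:115297110-115300999 (*Dynll1*), chr17:33819027-33824562 (*Rps28*), chr10:93583029-93589706 (*Snrpf*), chr9:121848563-121858362 (*Higd1a*) and chr5:30905885-30907788 (*Ost4*). The low members are at chr12:111961375-111966977 (*2010107E04Rik*), chr10:112925430-112929001 (*Atxn7l3b*), chr11:55446641-55461239 (*Atox1*), chr5:108433244-108434448 (*Atp5k*), chr4:116066965-116075071 (*Uqcrh*), chr6:6557294-6578663 (*Shfm1*) and chr7:31068172-31076704 (*Fxyd3*). All 14 have A or G at position -3, counted back from the A of the ATG. Since nearly all fully counted short proteins have A or G there, that base could hardly separate the high from the low members. Among fully counted short proteins with an annotated context, 131 of 140 (93.6%) had A or G at -3, against 84.4% of 19036 genes of the annotation and 86.7% of the rows passing the filters. A G at position 4, right after the ATG, was found in 39.3% of these short proteins, against 49.3% of all genes and 53.8% of the rows passing the filters. Both bases together occurred in 35% of them, in 41.4% of all genes and in 46.7% of the rows passing the filters.

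Annotation split the members into 4 classes, and the largest single class was that of longer proteins. The longest annotated CDS was above 300 nt in 212 members, called longer proteins counted in part, although at least 80% of it was counted in 16 of them. In 147 members the longest annotated CDS was at most 300 nt and at least 80% of it was counted, and these are called fully counted short proteins. In another 33 members the protein was short but less of it was counted, and 6 rows had no annotated protein. Of the 398 names, 396 were matched to the annotation, 23 of them through an older name. Classes follow the longest CDS of a gene, and for 18 of the longer proteins the principal isoform of the annotation had at most 300 nt. At least 80% of such a short principal CDS was counted in 16 of the longer proteins and in 8 of the short proteins counted in part, so these can be short proteins counted in full. With principal isoforms in place of the longest CDS, the longer class held 194 members, against 171 short proteins counted in full and 27 in part.

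The classes differed in the strand of their genes, a property that the selection did not use. Matched coding rows were spread evenly, with 9998 on the plus strand and 10054 on the minus strand. Among them, 1818 plus-strand rows (18.2%) and 292 minus-strand rows (2.90%) had under 80% of the CDS counted, so the tilt was shared by partly counted rows outside the members. Longer proteins counted in part lay on the plus strand in 194 cases and on the minus strand in 18. Short proteins counted in part lay on the plus strand in 28 of 33 cases. Fully counted short proteins leaned the other way, with 56 on the plus and 91 on the minus strand. Part of this lean follows from the classes, since short proteins counted in part were set apart from them.

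Partial counting also went with sequence shared between genes, again on the plus strand. Shared sequence is given as the percent of the 30-mers of a CDS that also occur, in the same orientation, in an annotated transcript of another gene, pseudogenes included. The median was 73.7% in longer proteins counted in part, 35.6% in short proteins counted in part and 0% in fully counted short proteins. Among rows in which 50% to 90% of 30-mers were shared, the counted part stayed under 80% of the CDS in 83.3% of 204 plus-strand rows and in 2.55% of 274 minus-strand rows. Where above 90% were shared, this held for 88 of 128 plus-strand rows and 5 of 143 minus-strand rows. Without a shared 30-mer the strands were close, at 3.49% of 3385 rows and 2.19% of 3375 rows. Within the longer proteins, the share of the CDS counted and the share of its 30-mers found elsewhere had a Spearman correlation of -0.71 across 211 genes, which are not independent replicates. How positions were left out of the counting is not given in the sources used here, and the cause of the strand difference was not tested.

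**Figure D1:**
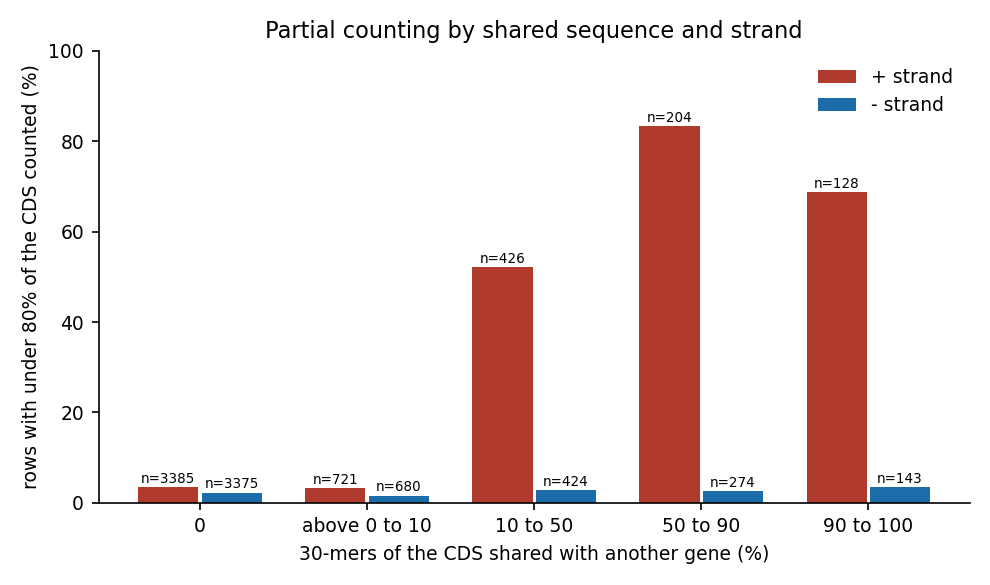
Percent of rows with less than 80% of the annotated CDS counted, by the percent of 30-mers of the CDS shared with another gene and by strand, for rows that passed the filters or are members. Plus-strand bars reach 52.1%, 83.3% and 68.8% in the upper 3 bins, while the minus-strand bars of these bins hold 12, 7 and 5 rows.

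Members took up a small share of each library. On exons they held 176077 of 3549555 footprints (4.96%), 281612 of 10707930 reads of RNA-seq replicate 1 (2.63%) and 377878 of 14003713 reads of replicate 2 (2.70%). The share was thus larger among footprints than in either RNA-seq library. In bulk samples, fewer cells of a type and less RNA per cell cannot be told apart, and all levels here are averages over the culture. By class, fully counted short proteins held 1.54% of the footprints on CDS and 0.848% and 0.835% of the RNA-seq reads on CDS. Longer proteins counted in part held 2.56% of the footprints on CDS and 1.04% and 1.10% of the RNA-seq reads on CDS.

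RNA-seq replicates of the members were close but differed beyond counting noise. The log2 ratio of replicate 2 to replicate 1 had an SD of 0.23 over the 398 members and 0.20 over the 9862 rows that passed the filters. The chi-square statistic per degree of freedom, which compares these libraries only, was 6.44 for the members and 7.52 for the passing rows. *Cxcl2*, a neutrophil-attracting chemokine, was the only member past a 2-fold difference, against 9 of the 9862 passing rows, with 26.5 and 82.9 exon reads, and was named after its values were seen. Among fully counted short proteins with at least 100 counts in each library, the largest differences were those of *Uqcrq*, a subunit of respiratory complex III (200 and 291 RPKM), *Sf3b5*, a splicing factor subunit (48.4 and 65.9 RPKM), and *Defb1*, an antimicrobial defensin (59.9 and 48.0 RPKM).

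Among fully counted short proteins, the 5 most abundant mRNAs encoded proteins of varied function. *S100a6*, an S100 calcium-binding protein, had 1343 and 1254 RPKM in RNA-seq replicates 1 and 2 and 8269 RPKM of footprints on its CDS. *Tmsb4x*, which encodes the actin-sequestering peptide thymosin beta 4, had 972 and 832 RPKM in RNA-seq and 3922 RPKM of footprints. *S100a10*, the S100 partner of annexin A2, had 838 and 779 RPKM in RNA-seq and 2503 RPKM of footprints. Each of the 5 had higher RPKM of footprints in this library than of RNA-seq. The medians of all rows that passed the filters had the same order, at 19.1 RPKM of footprints and 15.3 RPKM of RNA-seq. *Shfm1*, a small subunit of the proteasome lid and partner of Brca2, had 756 and 674 RPKM in RNA-seq and 1063 RPKM of footprints. *Rpl39*, one of the smallest ribosomal proteins, had 694 and 577 RPKM in RNA-seq and 2451 RPKM of footprints, and every 30-mer of its CDS also occurs in another gene.

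Translational efficiency (TE) divides the RPKM of footprints, counted on the CDS, by that of RNA-seq, counted on exons and averaged over replicates, and is given as a log2 value relative to the median of the rows that passed the filters. The filters kept rows above 1 RPKM in both RNA-seq libraries, with a base mean above 25 and a footprint on a counted CDS. Of the 398 members, 376 passed, among them 138 fully counted short proteins, 33 short and 201 longer proteins counted in part, and 4 rows without an annotated protein.

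Fully counted short proteins lay above the median of all rows in TE, a ratio that contains the counted length and the RNA-seq reads by which they were selected. Their median log2 TE was 1.23, with quartiles of 0.68 and 2.03. Of the 138 that passed, 85 were above 1, the call used here for a 2-fold difference, against a background of 20.7% of all passing rows. Only 2 were below -1, against a background of 21.1%, but passing requires a footprint, and *Smim1* and *Igip*, which had none, have upper limits below -1 as given further down. Against RNA-seq replicate 1 alone the median was 1.25, and against replicate 2 alone it was also 1.25. Only 1 ribosome profiling library was used here, so these values were not tested, and the intervals given for single genes are 95% Poisson intervals that cover only the counting error of the footprints and take every read as a separate molecule, which PCR duplicates are not. With RNA-seq counted over the CDS in place of exons, 56 (40.6%) were above 1, against 18.3% of all rows. Without division by length 45 (32.6%) were above 1, against 19.2% of all rows, and 27 (19.6%) were below -1, against 21.1% of all rows.

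Short proteins sat at the upper end of a gradient of TE with CDS length. Over all rows with at least 80% of the CDS counted, the median log2 TE was 1.63 for 150 to 200 nt (20 rows), 1.19 for 200 to 250 nt (52 rows) and 1.09 for 250 to 300 nt (80 rows). Just above the length limit of the members, 359 rows of 300 to 450 nt had a median of 1.01, and 1343 rows above 3000 nt had a median of -0.77. The Spearman correlation of TE with counted CDS length was -0.41 across 9035 rows and -0.15 across the 138 fully counted members, both as descriptions, since length enters TE. In rows without a shared 30-mer the medians of the short bins were level, at 0.90 for 8 rows of 150 to 200 nt, 0.94 for 28 rows of 200 to 250 nt and 0.93 for 43 rows of 250 to 300 nt. They were lower in longer CDS, down to -0.74 for 998 rows above 3000 nt.

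**Figure D2:**
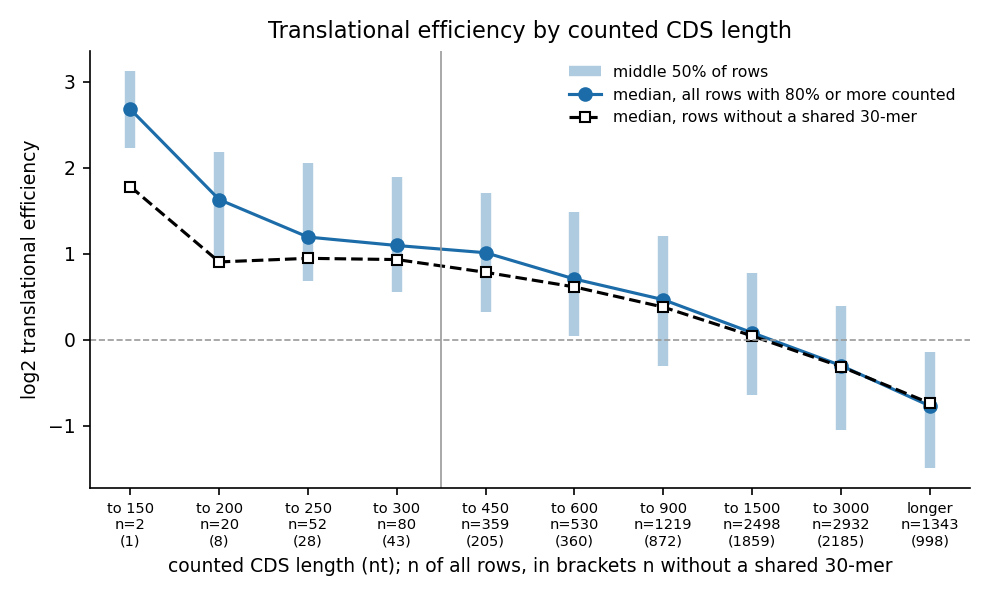
Median log2 translational efficiency by counted CDS length in nt, for all rows with at least 80% of the CDS counted (circles, with bars between the quartiles) and for those without a shared 30-mer (squares). The vertical line marks 300 nt, and medians go from 2.68 in the shortest bin, which holds 2 rows, to -0.77 above 3000 nt.

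Shared sequence went with higher TE also among the fully counted short proteins. The 76 that passed without a shared 30-mer had a median log2 TE of 0.95, with 35 above 1 and 2 below -1. The 62 with a shared 30-mer had a median of 1.81, and 50 of them were above 1. In the 24 with above 50% of 30-mers shared the median was 2.10, against 1.22 for all 742 passing rows with that much shared sequence. Reads that map to several genes can be lost or split in counting, so levels of members with near-identical copies are uncertain, and the part of this in their TE was not tested.

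The shortest fully counted proteins ranged widely in TE. *Ost4*, a subunit of the oligosaccharyltransferase that glycosylates proteins in the ER, has the shortest CDS at 111 nt and had 64.0 and 65.1 RPKM in RNA-seq and 977 RPKM of footprints, a log2 TE of 3.58 (3.43 to 3.72). *Tmsb4x*, with 150 nt, had a log2 TE of 1.78, and *Rpl39*, with 153 nt, had 1.61. *Atp5e*, the epsilon subunit of ATP synthase with 156 nt, had 399 and 442 RPKM in RNA-seq and 1056 RPKM of footprints, a log2 TE of 0.99. *Igip*, a secreted peptide linked to IgA production with 159 nt, had 13.5 and 8.95 RPKM in RNA-seq and no footprint on its CDS.

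A minimum of 100 counts per library left 78 fully counted short proteins, and its 8 highest by TE are given first. Subunits of large complexes occur among them and also among the 8 lowest. *Rps29*, a ribosomal protein of the small subunit, had 46.0 and 44.5 RPKM in RNA-seq and 4338 RPKM of footprints, a log2 TE of 6.24 (6.18 to 6.30). *Polr2l*, a subunit shared by the nuclear RNA polymerases, had 8.21 and 9.64 RPKM in RNA-seq and 458 RPKM of footprints, a log2 TE of 5.34 (5.18 to 5.50). *Dynll1*, a dynein light chain, had 48.0 and 46.6 RPKM in RNA-seq and 1053 RPKM of footprints, a log2 TE of 4.13. In each of the 3 the RNA-seq replicates lay close together and far below the footprints. *Rps28*, another small-subunit ribosomal protein, had 131 and 136 RPKM in RNA-seq and 2877 RPKM of footprints. *Snrpf*, an Sm protein of the spliceosome, had 35.3 and 33.5 RPKM in RNA-seq and 663 RPKM of footprints. *Higd1a*, a mitochondrial inner membrane protein induced by hypoxia, had 15.9 and 17.9 RPKM in RNA-seq and 270 RPKM of footprints. Their log2 TE values were 4.09, 3.93 and 3.65.

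Shared sequence marked most of these high members but not all. Every 30-mer of *Rps29*, *Polr2l* and *Rps28* also occurs in another gene, and the share was 83.0% in *Snrpf*, 59.7% in *Higd1a*, 48.8% in *Ost4* and 45.0% in *Dynll1*. *Defb14*, an antimicrobial defensin of epithelia, was the exception, with no shared 30-mer and a position on the plus strand at chr8:19194357-19195212. It had 36.9 and 31.7 RPKM in RNA-seq and 606 RPKM of footprints, a log2 TE of 3.80 (3.66 to 3.94). With RNA-seq counted over the CDS, log2 TE was 5.99 for *Rps29* and 3.51 for *Defb14*. It was 3.44 for *Polr2l*, 2.54 for *Higd1a*, 2.28 for *Ost4* and 2.10 for *Dynll1*, each more than 1 below its value on exons.

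The 8 with the lowest TE under the same minimum stood near the median of all genes. *Fxyd3*, a regulator of the sodium pump, had 131 and 134 RPKM in RNA-seq and 156 RPKM of footprints, a log2 TE of -0.11 (-0.35 to 0.13). *Brk1*, a subunit of the WAVE complex that drives actin branching, had 157 and 160 RPKM in RNA-seq and 213 RPKM of footprints, a log2 TE of 0.09. The intervals of both include 0. *Shfm1* followed at 0.23 (0.13 to 0.33), with the levels given above. *Uqcrh*, the hinge protein of complex III, had 260 and 279 RPKM in RNA-seq and 439 RPKM of footprints, a log2 TE of 0.36. *Atp5k*, a membrane subunit of ATP synthase, had 276 and 288 RPKM in RNA-seq and 481 RPKM of footprints, a log2 TE of 0.43. *Atox1*, a copper chaperone, had 593 and 663 RPKM in RNA-seq and 1116 RPKM of footprints, a log2 TE of 0.49. These 3 had footprint levels like those of several high members but more mRNA, which is the divisor of TE. *Atxn7l3b* had 63.9 and 57.6 RPKM in RNA-seq and 109 RPKM of footprints, a log2 TE of 0.50, and *2010107E04Rik*, annotated as an ATP synthase subunit, had 252 and 258 RPKM in RNA-seq and a log2 TE of 0.56.

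**Figure D3:**
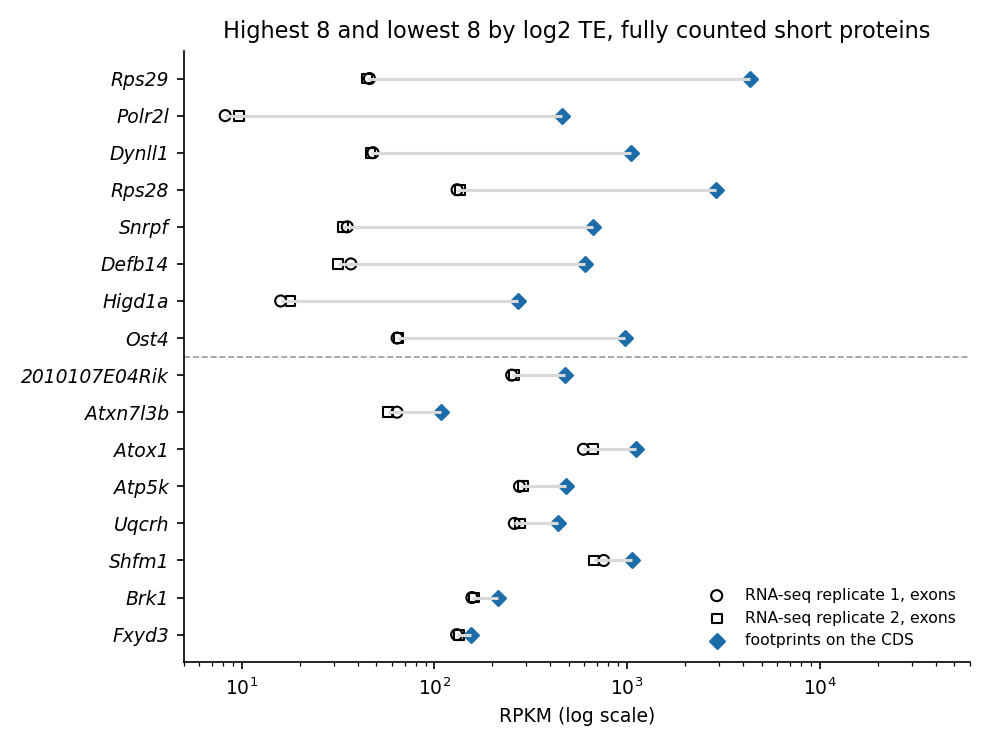
RPKM on a log scale of the 8 fully counted short proteins with the highest and the 8 with the lowest log2 TE, above and below the dashed line, in RNA-seq replicates 1 and 2 (open symbols, exons) and in ribosome profiling (diamonds, CDS). Footprint levels overlap between the sets, and RNA-seq levels run from 8.21 to 136 in the upper and from 57.6 to 756 in the lower set. RNA-seq is the divisor of the TE that chose the sets. Over the 138 fully counted short proteins, TE and mean RNA-seq RPKM had a Spearman correlation of -0.07.

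Only 2 fully counted short proteins that passed were below -1, and both were named after their values were seen. *Sepw1*, a selenoprotein whose CDS contains a recoded stop codon, had 179 and 198 RPKM in RNA-seq and 92.4 RPKM of footprints, a log2 TE of -1.37 (-1.69 to -1.06). *1190003K10Rik* had 14.7 and 13.8 RPKM in RNA-seq and a log2 TE of -1.65, which rested on 4.78 footprints.

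By function, 190 members fell into 12 lists, and every list had a median log2 TE above 0. With RNA-seq counted over the CDS this held for all but the metal, redox and lipid carriers, at -0.25. Of all 376 members that passed, 266 (70.7%) were above 1, with a median of 1.72, and the counts of whole lists are to be read against that share. Counts of fully counted members are to be read against the 61.6% of that class, and both against 20.7% of all passing rows. Listed genes outside the members had a lower median than the members in 10 of the 12 lists. Here and below this comparison is description only, since the counted length that chose the members also enters TE. The exceptions were chromatin and signalling proteins, at 1.95 outside against 1.48, and metal, redox and lipid carriers, at 0.81 against 0.45. The lists mix classes, so values of fully counted members are given beside those of the whole list, and brackets after a gene give its RPKM in RNA-seq replicates 1 and 2 and in footprints. Cytosolic ribosomal proteins formed the largest list, with 45 members, of which 37 were longer proteins counted in part and only 3 fully counted. Their median log2 TE was 3.68, with 40 above 1 and 1 below -1. The 3 counted in full had a median of 4.09, and all 3 were above 1. The 33 ribosomal protein genes outside the members that passed had a median of 0.92. *Rpl21*, a large-subunit protein, was highest at 6.72, and *Rplp0*, the base of the ribosomal stalk, was lowest at -1.29.

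Mitochondrial members were mainly short proteins counted in full. In the respiratory chain and ATP synthase list, 22 of 30 members were fully counted, with a median log2 TE of 1.19 and 16 above 1. The whole list had a median of 1.32, with 23 above 1, and the 8 members counted in part had 2.37. The 34 subunits outside the members that passed had a median of 1.03. *Cox5b* (17.5, 14.9 and 501), a cytochrome oxidase subunit of which 30.5% was counted, was highest at 4.61, and *Ndufb3* (144, 148 and 210), a complex I subunit, was lowest at 0.18. *Pet100* (11.1, 9.88 and 128), an assembly factor of cytochrome oxidase, led the fully counted ones at 3.26, or 1.49 with RNA-seq counted over the CDS, where it no longer led, and *Cox19* (22.9, 27.6 and 38.1) was lowest among them at 0.25. The 15 import and inner membrane factors had a median of 1.72, with 14 above 1. The 10 counted in full had a median of 1.90, and 9 were above 1. They ran from *Timm8b* (82.1, 77.8 and 188), a small chaperone of the intermembrane space, at 0.89 to *Higd1a* at 3.65.

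Subunits of splicing and secretory complexes were also above the median of all genes. All 11 Sm, LSm and small splicing members had a log2 TE above 1, with *Lsm8* (87.6, 83.0 and 274) lowest at 1.34 and *Lsm5* highest, a median of 2.35 and 2.99 for the 6 counted in full. *Lsm5*, part of the ring that binds the 3′ ends of U6 RNA or decaying mRNAs, had 16.9 and 14.9 RPKM in RNA-seq and 321 RPKM of footprints, a log2 TE with an interval from 3.83 to 4.16, and 88.5% of its 30-mers shared. In the ER and membrane enzyme list, 9 of 14 members were above 1, with a median of 1.75, and 2 of the 4 counted in full, with a median of 1.42. *Sarnp* (4.73, 4.09 and 230), which the list holds although it acts in mRNA export, was highest at 5.37 and *Dpm2* (38.4, 42.6 and 66.3), a subunit of the dolichol-phosphate-mannose synthase, lowest at 0.37. *Sptssa* (68.8, 63.6 and 132), a subunit of serine palmitoyltransferase, was the lowest counted in full at 0.66, and *Ost4* the highest.

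Subunits of transcription, ubiquitin and cell cycle complexes had a median of 2.06, with 14 of 18 above 1, and the 10 counted in full had the same median, with 7 above 1. *Polr2l* was highest, and *Anapc13* (83.8, 74.9 and 104), a subunit of the anaphase-promoting complex, was lowest at 0.05. Among the 10 actin, dynein and cytoskeletal members the median was 1.79, with 7 above 1, and the 5 counted in full had a lower median, with 3 above 1 and *Dynll1* highest at 4.13. *Tmsb10*, a thymosin with 132 nt counted, which is 65.7% of the longest CDS and all of the principal one, had 23.9 and 23.8 RPKM in RNA-seq and 4687 RPKM of footprints, a log2 TE of 7.28. *Brk1* was the lowest of that list.

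Members tied to the epidermis spread over both sides of the call. The 9 S100 proteins, stefins and cornified envelope precursors had a median of 2.33, with 7 above 1, and the 6 counted in full had a median of 1.60, with 4 above 1. *Sprr2k*, a cornified envelope precursor, had 9.68 and 8.45 RPKM in RNA-seq and 181 RPKM of footprints, a log2 TE of 3.98, the highest of the list. *S100a8* (7.15, 9.74 and 14.9), a calprotectin subunit, was lowest at 0.48 on 14.1 footprints, with an interval from -0.41 to 1.21. Chemokines and other small secreted proteins had 6 members, 5 of which passed, with a median of 1.11, which was also that of the 3 counted in full that passed. They ran from *Cxcl2* (2.48, 5.93 and 8.55) at 0.68, with 6.58 footprints, to *Defb14*. The value of *Cxcl2* was 1.45 against replicate 1 alone and 0.17 against replicate 2 alone, so its place as the lowest rests on replicate 2. Its relative *Cxcl1* (13.3, 13.6 and 31.6) was lowest among those counted in full at 0.89.

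Metal carriers and small membrane proteins had the lowest medians of the 12 lists. Metal, redox and lipid carriers had a median of 0.45, with 3 of 9 above 1 and *Sepw1* below -1. Their highest member was *Fabp5*, the epidermal fatty acid binding protein, with 350 and 330 RPKM in RNA-seq and 2519 RPKM of footprints, a log2 TE of 2.55. *Atox1* was the highest of the 3 counted in full. Their median of -0.57 is the value of *Nupr1*, which the list holds although it is a nuclear stress protein and no carrier. *Ppdpf*, a longer protein at -0.88, is also in the list without being a known carrier. The 10 small membrane and uncharacterised proteins, of which 9 passed, had a median of 1.00 and 4 above 1, from *Smim11* (31.1, 28.5 and 24.3) at -0.64 to *Smim7* (49.1, 50.6 and 419) at 2.73. Of the 13 chromatin and signalling members, 9 passed, with a median of 1.48 and 6 above 1, and the 4 counted in full that passed had a median of 1.27, with 3 above 1. *Ptma* (130, 171 and 2050), the nuclear protein prothymosin alpha, was highest at 3.43. *Gng12* (51.9, 48.1 and 213), a G protein gamma subunit, was highest among those counted in full at 1.75. Lowest among these was *Fxyd3* at -0.11, a regulator of the sodium pump that the list holds. *Pkig* (11.2, 13.3 and 2.90), a protein kinase A inhibitor, was lowest of the list at -2.42 on 1.77 footprints. With RNA-seq counted over the CDS, *Ptma* at 6.16 stood below *Hmgn2* at 6.28. *Gng12* at 0.95 then stood below *Hmgn1*, counted in full, at 3.16. Both *Hmgn1* and *Hmgn2* are of this list and were named after their values were seen.

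**Figure D4:**
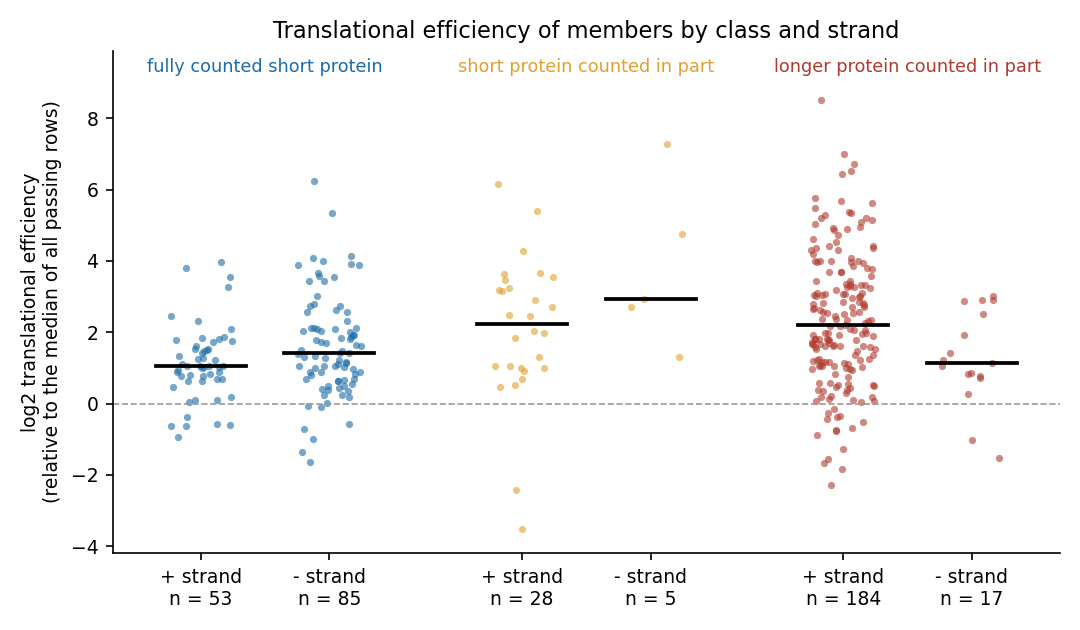
Log2 translational efficiency of each member that passed, relative to the median of all passing rows (dashed line), by class and strand, with black lines at the medians. Longer proteins counted in part have a median of 2.19 for 184 plus-strand rows and 1.14 for 17 minus-strand rows, and fully counted short proteins 1.06 and 1.43.

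Longer proteins counted in part had a higher TE than fully counted short proteins, and the value was higher where less of the CDS was counted. Their median log2 TE was 2.06, or 0.83 above that of the fully counted class, with 154 of 201 above 1 and 7 below -1. With less than 25% of the CDS counted the median was 3.26 over 71 genes, with 25% to 50% it was 2.17 over 71 genes, and with 50% to 80% it was 1.23 over 43 genes. The 16 genes of this class with at least 80% counted had a median of 1.06. Shared sequence went the same way, with medians of 96.6%, 75.6%, 35.4% and 16.3% of 30-mers in these bins. So did ribosomal genes, with 24, 11, 2 and 0. Both were taken over all 78, 72, 46 and 16 genes of the bins, including those that did not pass. Across the class, TE had a Spearman correlation of 0.56 with the share of 30-mers found elsewhere (200 genes) and of -0.41 with the counted share (201 genes). Among genes without a shared 30-mer the class stood near the fully counted one, with 1.09 over 24 genes against 0.95 over 76. On the minus strand the order turned, with 1.14 over 17 longer proteins and 1.43 over 85 fully counted short ones. These splits were chosen after the values were seen. Strand and shared sequence were not separate, since the median share of 30-mers also turned. It was 0% in minus-strand longer proteins and 7.86% in minus-strand fully counted ones, against 77.7% and 0% on the plus strand. Some minus-strand longer proteins also had all of a short principal CDS counted.

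The highest TE values of the class came from genes in which less than 25% of the CDS was counted. *Rpl21* had 100 of 480 nt counted and showed 15.4 and 13.9 RPKM in RNA-seq and 1956 RPKM of footprints. *Rps25*, a small-subunit ribosomal protein with 76 of 375 nt counted, had 29.1 and 30.7 RPKM in RNA-seq and 3475 RPKM of footprints, a log2 TE of 6.52. *Ube2n*, a ubiquitin-conjugating enzyme, had 4.54 and 4.40 RPKM in RNA-seq and 496 RPKM of footprints, a log2 TE of 6.45. All 3 lie on the plus strand, with 98.3% or more of their 30-mers shared. *Serf2* had 14.5 and 13.4 RPKM in RNA-seq and 953 RPKM of footprints, a log2 TE of 5.75. *Rpl27*, a large-subunit ribosomal protein, had 57.9 and 53.8 RPKM in RNA-seq and 3152 RPKM of footprints, a log2 TE of 5.48. Over the CDS alone, log2 TE was 3.63 for *Rpl21*, 5.23 for *Rps25* and 3.86 for *Ube2n*. *Hist1h2bc*, a histone H2B gene, and *Hmgb2*, a chromatin protein, both named after their values were seen, were higher at 8.53 and 6.99 but had fewer than 100 RNA-seq reads in each replicate. Only 25 of 378 nt were counted for *Hist1h2bc* and 106 of 630 nt for *Hmgb2*, with 100% and 95.8% of their 30-mers shared.

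Among the 102 genes of the class with at least 100 counts per library, the 5 lowest TE values included ribosomal proteins as well, while 6 of the 7 genes below -1 had fewer counts. *Rplp0* had 1518 and 1842 RPKM in RNA-seq and 874 RPKM of footprints, and 31.4% of its CDS was counted. *Prelid1*, a carrier of phospholipids between mitochondrial membranes, had 186 and 228 RPKM in RNA-seq and 156 RPKM of footprints, a log2 TE of -0.75. *Rps9*, a small-subunit ribosomal protein, had 2246 and 2438 RPKM in RNA-seq and 2299 RPKM of footprints, a log2 TE of -0.37. For ribosomal proteins of this class TE thus ran from -1.29 to 6.72. *Wbp5* had 180 and 151 RPKM in RNA-seq and 216 RPKM of footprints, a log2 TE of 0.04. *Mt1*, a metallothionein that binds zinc and copper, had 596 and 609 RPKM in RNA-seq and 814 RPKM of footprints, a log2 TE of 0.09, with 183 nt counted, which is 46.2% of the longest annotated CDS but all of the principal one.

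The smallest counted shares left almost nothing of the CDS. *Zxdb*, a zinc finger protein, had 28 of 2619 nt counted (1.07%), no footprint, and 3.96 and 2.85 RPKM in RNA-seq. *Hnrnpf*, an RNA-binding splicing regulator, had 26 of 1245 nt counted (2.09%), with 40.2 and 37.7 RPKM in RNA-seq and 788 RPKM of footprints from 72.7 counts. *Nudt11*, a phosphohydrolase of inositol pyrophosphates, had 29 of 492 nt counted, 7.07 and 6.39 RPKM in RNA-seq and 0.516 footprints. For such rows TE describes a fragment and not the gene.

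The 33 short proteins counted in part had a median log2 TE of 2.49, and 26 were above 1. With 25% to 50% of the CDS counted the median was 3.17 over 9 genes, and with 50% to 80% it was 1.32 over 21 genes. The 2 below -1 were *Pkig* and *2210013O21Rik*, which had 1 footprint and was named after its values were seen. *Rpl41*, the smallest ribosomal protein and also named after its values were seen, had 75 nt counted, all of its principal CDS but not of the longest one of 138 nt, with 2587 and 3025 RPKM in RNA-seq and 23190 RPKM of footprints, the highest footprint level of all rows that passed.

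Rows without an annotated protein were pseudogenes, a noncoding RNA and unmatched names. *Gm13826*, annotated as a transcribed pseudogene of a ribosomal protein, had 1147 and 1236 RPKM in RNA-seq and 1546 RPKM of footprints, a log2 TE of 0.03. *Gm6251*, a processed pseudogene of a ribosomal protein, had 218 and 249 RPKM in RNA-seq and 223 RPKM of footprints, a log2 TE of -0.41. *1500012F01Rik*, the small nucleolar RNA host gene Zfas1, had 318 and 341 RPKM in RNA-seq but 14.2 RPKM of footprints from 11.1 counts, a log2 TE of -4.88 (-5.90 to -4.06). Reads of pseudogenes and their parent genes cannot be told apart from these counts. *Gm12657*, another pseudogene, had a log2 TE of 1.83, and the 2 unmatched names, *1700094D03Rik* and *Nrp*, had no footprint.

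In all, 10 members had no footprint on the CDS, and 22 members did not pass the filters. The 22 were 9 fully counted short proteins, 11 longer proteins counted in part and 2 rows without an annotated protein, and 12 of them had a footprint. The fully counted ones were *2610528A11Rik*, *Camk2n1*, *Camk2n2*, *Cxcl14*, *Gng3*, *Gng7*, *Igip*, *Lyrm9* and *Smim1*. The longer proteins were *C330021F23Rik*, *Ccnyl1*, *Gemin8*, *Lin52*, *Mthfs*, *Phgr1*, *Ppp2r3d*, *Rmi1*, *Rsph3a*, *Tmem14a* and *Zxdb*. *Smim1*, a small membrane protein of red blood cells, had 280 and 381 RNA-seq reads, the most among those without a footprint. A count of 0 allows up to 3 footprints, which places its log2 TE below -1.44. For *Igip* the same limit is -1.42, and for *C330021F23Rik*, a longer protein with 48 nt counted and 152 and 194 reads, it is -0.28.

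Footprints on the UTRs were read next, as a ratio to those on the CDS that contains the counted length and is description only, for genes with at least 30 nt of counted UTR and 10 footprints on the CDS. In fully counted short proteins the density of footprints per nt on the 5′UTR was compared with that on the CDS, and the log2 ratio had a median of -1.89 over 122 genes, against -1.17 over 8608 rows. The 5′UTR was denser than the CDS in 7 of the 122, against a background of 19.4% of rows, both with the pseudocount of 0.5 counts. RNA-seq showed the opposite order, with a median of -1.15 in the short proteins and -1.69 in all rows with RNA-seq reads. Summed over these genes without division by length, footprints on the 5′UTR amounted to 13.3% of those on the CDS, against 5.48% over all rows. A short counted CDS chose the members, so this larger share is no sign of denser 5′UTRs.

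The densest 5′UTRs belonged to genes of varied function. *Smim11*, a small membrane protein, had 26.3 footprints on 139 nt of 5′UTR and 14.2 on 165 nt of CDS, a log2 ratio of 1.11. *Mrps21*, a mitochondrial ribosomal protein, had 47.6 on 43 nt of 5′UTR and 159 on 261 nt of CDS, a log2 ratio of 0.87. *Csta1*, a stefin that inhibits cathepsins, had 11.8 on 139 nt and 15.0 on 291 nt, a log2 ratio of 0.73. These 3 and the next, *Nupr1*, a stress-induced nuclear protein at 0.56, and *S100a8* at 0.17 were chosen after their values were seen. For *S100a8* the sign comes from the pseudocount, since its 5′UTR held 52.6 and its CDS 52.8 footprints per 1000 nt. Upstream reading frames in them were not tested.

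On the 3′UTR, footprints were sparse. The median log2 ratio to the CDS was -4.80 over 132 fully counted short proteins, and -5.00 over 9377 rows. None of the 132 had a denser 3′UTR than CDS, against a background of 0.757% of rows. The nearest, chosen after their values were seen, were *Chchd7*, a mitochondrial intermembrane protein at -1.28, *1810043H04Rik* at -1.61 and *Bola2* at -1.72. Their order depends on the pseudocount, since *Chchd7* had only 0.723 footprints on 36 nt, or 20.1 per 1000 nt against 80.6 on the CDS. For *1810043H04Rik* the densities were 33.5 and 107, and for *Bola2* 217 and 754.

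**Figure D5:**
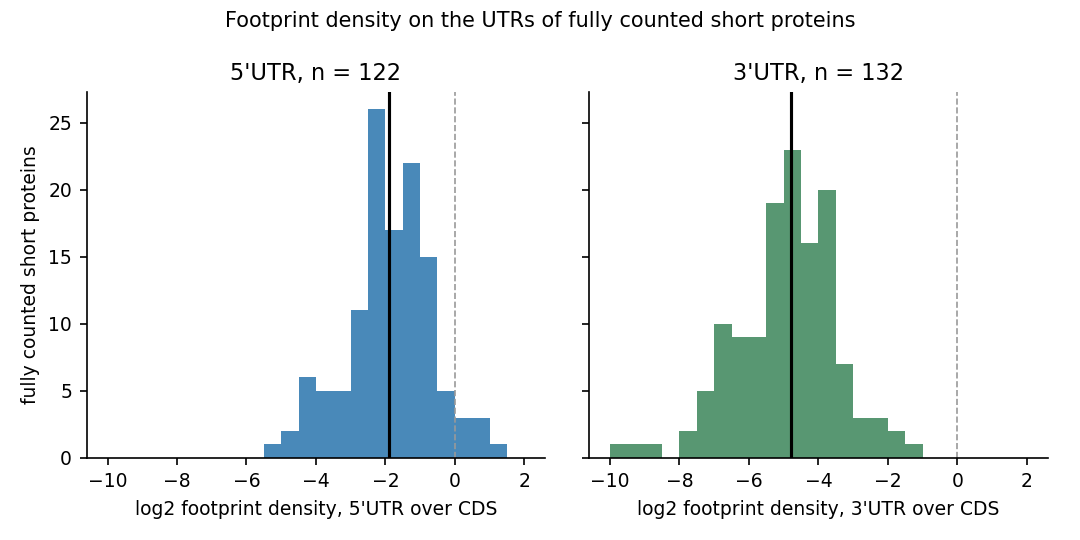
Number of fully counted short proteins by how dense footprints were on the 5′UTR (left, 122 genes) or the 3′UTR (right, 132 genes) relative to the CDS, as a log2 ratio, with solid lines at the medians of -1.89 and -4.80. The dashed lines mark equal density, which 7 genes pass on the 5′UTR and none on the 3′UTR.

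By start context, TE of fully counted short proteins differed little between the larger groups. The 49 with both A or G at -3 and G at 4 had a median log2 TE of 1.43, and the 81 with 1 of these bases had 1.13, while the 2 with neither base had -0.18. The ranges between the quartiles of the larger groups overlapped, from 0.84 to 2.11 and from 0.64 to 1.84.

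The limits of the selection ran between rows of close length and depth. Of the 5 members with exactly 300 nt counted, *Edf1*, a transcriptional coactivator, and *Mrpl30*, a mitochondrial ribosomal protein, had the most reads and log2 TE values of 0.46 and -1.56. The others, *4933434E20Rik* at 1.67, *Lsm3*, an LSm protein, at 2.35 and *Tmem14a*, which did not pass, were named after their values were seen. Just outside, with 301 nt, *Ube2m* and *Sumo3*, of the Nedd8 and Sumo conjugation pathways, had 1.59 and 2.47. At the read minimum, *2610528A11Rik* entered with 50.4 reads and *Sarnp* with 51.8, while *Gm14420* with 49.2 and *Nup35*, a nuclear pore protein, with 45.3 did not.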

How the data were processed

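One ribosome profiling and 2 RNA-seq libraries of SCC were used. The long-read libraries were not analysed here. The authors trimmed reads with Trim Galore, aligned them to GRCm38 with STAR 2.6.1, removed ribosomal, mitochondrial and tRNA matches from footprints with Bowtie2 2.4.1 (names and versions from the submitters' processing notes and the study's methods) and counted regions of each gene with Plastid. The deposited values are estimated counts, which need not be whole, with RPKM computed by the authors beside them. The annotation and the positions left out of counting are not given in the sources used here.

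RPKM was recomputed from counts, counted length and the sum of exon counts of a library. TE used no pseudocount. Counts were rounded to whole numbers for size factors (median of ratios) and for edgeR 4.0.16 TMM factors. UTR densities used a pseudocount of 0.5 counts. Names were matched to GENCODE M21, with older symbols from a RefSeq gene table, each only where it led to 1 name. Shared 30-mers were counted on 9760 rows that passed or are members. Scripts ran in Python 3.11.15 with numpy 2.4.6, pandas 2.3.3, scipy 1.17.1 and matplotlib 3.10.9, and calculations were tested on simulated data.

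Genes were named by a rule: among fully counted short proteins the 5 shortest, the 5 most abundant, the 8 highest and 8 lowest TE and the 3 least alike between replicates; among longer proteins the 5 highest and lowest TE and the 3 smallest counted shares; the 3 most abundant rows without a protein; the 3 deepest without footprints; the ends of each list; and rows at the thresholds. Members and lists were chosen with earlier results of these data known. Depth was 3549555 footprints and 10707930 and 14003713 RNA-seq reads on exons.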

Additional observations from a re-analysis of the deposited data

How the results depend on the processing

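Main values were medians of log2 TE of 1.23 in fully counted short proteins and 2.06 in longer proteins counted in part, a difference of 0.83, with 85 and 154 above 1 and 2 and 7 below -1. Leaving out either RNA-seq replicate gave medians of 1.25 to 1.25 and 2.08 to 2.09, and differences of 0.83 to 0.84. Triples below give both medians and their difference. They were 0.80, 1.98 and 1.17 with RNA-seq counted over the CDS, 0.51, 1.49 and 0.99 without division by length, 1.22, 2.02 and 0.80 with a pseudocount of 1 RPKM, and 1.18, 1.95 and 0.76 without a filter beyond 1 count. They were 1.32, 2.28 and 0.96 with at least 100 counts in every library, 1.71, 2.93 and 1.22 for at most 200 nt, and 1.21, 1.94 and 0.72 for 200 reads. edgeR TMM factors, which nearly cancel by construction since TE is centred on a median, gave 1.24 and a difference of 0.82, and a counted share of 95% gave 1.25 and 0.81.

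Further settings were chosen after seeing the data. Principal isoforms gave 1.30, 2.17 and 0.88, and names matched without older symbols gave 1.31 and a difference of 0.74. Members without a shared 30-mer gave 0.95, 1.09 and 0.14, and plus-strand genes 1.06, 2.19 and 1.13. Minus-strand genes gave 1.43, 1.14 and -0.29, which reversed the difference, with 17 longer proteins.

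Fully counted short proteins above 1 numbered 56 with RNA-seq over the CDS, 45 without division by length, 48 with 100 counts, 15 for at most 200 nt, 35 without a shared 30-mer, 55 on the minus and 30 on the plus strand. Those below -1 numbered 4 with RNA-seq over the CDS, 27 without division by length, and 0 with 100 counts, at most 200 nt, exact names or the plus strand. Longer proteins above 1 numbered 83 with 100 counts, 87 for at most 200 nt, 13 without a shared 30-mer and 10 on the minus strand. Those below -1 numbered 23 without division by length, 2 with 100 counts, 0 for at most 200 nt, 1 without a shared 30-mer and 2 on the minus strand. Under the other of 16 settings these 4 counts were within 1.5 times the main count, 9, 10, 12 and 11 times, TMM among them each time. Each setting is centred on the median of the genes that pass under it, so a gene can cross a limit when the filter changes, and settings on fewer genes have fewer to count. For the rest the cause was not tested.

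The 5′UTR ratio was -2.33 with 60 nt and 100 footprints and kept under 2 of 3 settings, and the 3′UTR ratio kept under 3 of 3. The SD between replicates was 0.20 for 200 reads and 0.31 on CDS reads. Under principal isoforms the classes held 171, 27, 194 and 6 members, against 147, 33, 212 and 6, all within 1.5 times. No paired analysis was possible because the ribosome profiling library used here carries no replicate number and 1 condition was used. Depth limits members with few footprints, since a count of 0 was taken to allow up to 3.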
